A study of Arabidopsis thaliana with 12 samples.

Results

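Transcripts of mature Arabidopsis thaliana leaves were compared between the trb45 double mutant and the wild type (WT), both without any other mutation. The comparison used 6 libraries of the 12 in the series, 3 from the line named trb45-1 and 3 from WT of the Col-0 accession, and covered 19138 expressed genes of the 28775 listed. All plants grew untreated on soil in long days, leaves were collected at day 21, and stranded libraries were prepared from polyadenylated RNA. The other 6 libraries were from clf29, a mutant of the histone methyltransferase CLF, and from trb45 clf29. They were used to set the trb45 effect in a second background beside the effect in WT. Only 1 trb45 line is in these data, and the labels do not say that the replicates of a group came from separate plants, so p-values measure the spread between these samples. In whole leaves, fewer cells of a type and less RNA per cell cannot be told apart.

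TELOMERE REPEAT BINDING (TRB) proteins carry a Myb-like domain that binds telomeric repeats and a histone-H1-like domain. They also bind short stretches of telomeric sequence, called telo-boxes, in gene promoters, where other members of the family are known to help recruit Polycomb repressive complex 2 (PRC2). PRC2 places the repressive mark H3K27me3. Telo-boxes are common in promoters of genes of the translation machinery.

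Both mutated genes were lower in every trb45 library than in any WT library. AT1G72740 (TRB5) had 18.2, 16.7 and 16.7 CPM (counts scaled to a common library total) in WT replicates 1 to 3, and 4.34, 1.79 and 3.37 in trb45 replicates 1 to 3. AT1G17520 (TRB4) had 6.20, 4.91 and 5.43 CPM in WT, and 3.05, 1.35 and 2.46 in trb45. Transcripts of both genes therefore remained in the mutant, least in trb45 replicate 2, which was also the shallowest library. Total counts of the 6 libraries ran from 45519206 to 54100770. The other family members TRB1, TRB2 and TRB3 did not pass the test. Without trb45 replicate 2, 3 members of the family were lower, against 2 in the main fit, so TRB1, TRB2 or TRB3 was lower there. Among 6 measured PRC2 subunits only MSI1 passed, with a log2 fold change of -0.25. The MSI1 call ended without WT replicate 1 or 2 or trb45 replicate 1 or 3, with log2 fold changes of -0.25 to -0.21 and edgeR adjusted p values of 0.0699 to 0.118.

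With a threshold of 0.05 on edgeR's adjusted p, 2771 genes were higher in trb45 (14.5% of the genes tested) and 2141 were lower (11.2%). Most changes were small: the median log2 fold change was 0.49 among the higher genes and -0.41 among the lower ones. At least a doubling was reached by 440 of the higher genes (2.3%), and a fall of the same size by 269 of the lower ones (1.41%). The number of higher genes was 1806 without WT replicate 3. The balance of directions rested on the fit: without trb45 replicate 2 there were 2240 higher and 2412 lower genes, and with genes kept by a mean of at least 10 counts 2469 and 2431. Over all genes tested the median log2 fold change was 0.01, and in 7218 genes (37.7%) the WT and trb45 libraries did not overlap. Of the 2771 higher genes, 1553 (56.0%) were also higher in trb45 clf29 than in clf29, where 17.2% of all genes were higher, and 57 were lower. Of the 2141 lower genes, 1173 (54.8%) were lower there as well, where 14.2% of all genes were lower, and 83 were higher. These 2 comparisons share no library, but they come from 1 fit and share its estimate of the spread of each gene. The interaction, which tests the trb45 effect in clf29 against that in WT, passed for 1429 genes (7.47%).

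Changed genes made up very different shares of the gene lists used. The lists were chosen with earlier results of these data known, so these shares are a description. Late anthocyanin enzymes, iron deficiency regulators and genes of the DNA damage response had higher members in 100%, 64.7% and 45.5% of the genes tested. Lower members made up 70.0% of the unfolded protein response, 43.9% of the photosynthetic apparatus and 38.9% of the salicylic acid list.

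**Figure D1:**
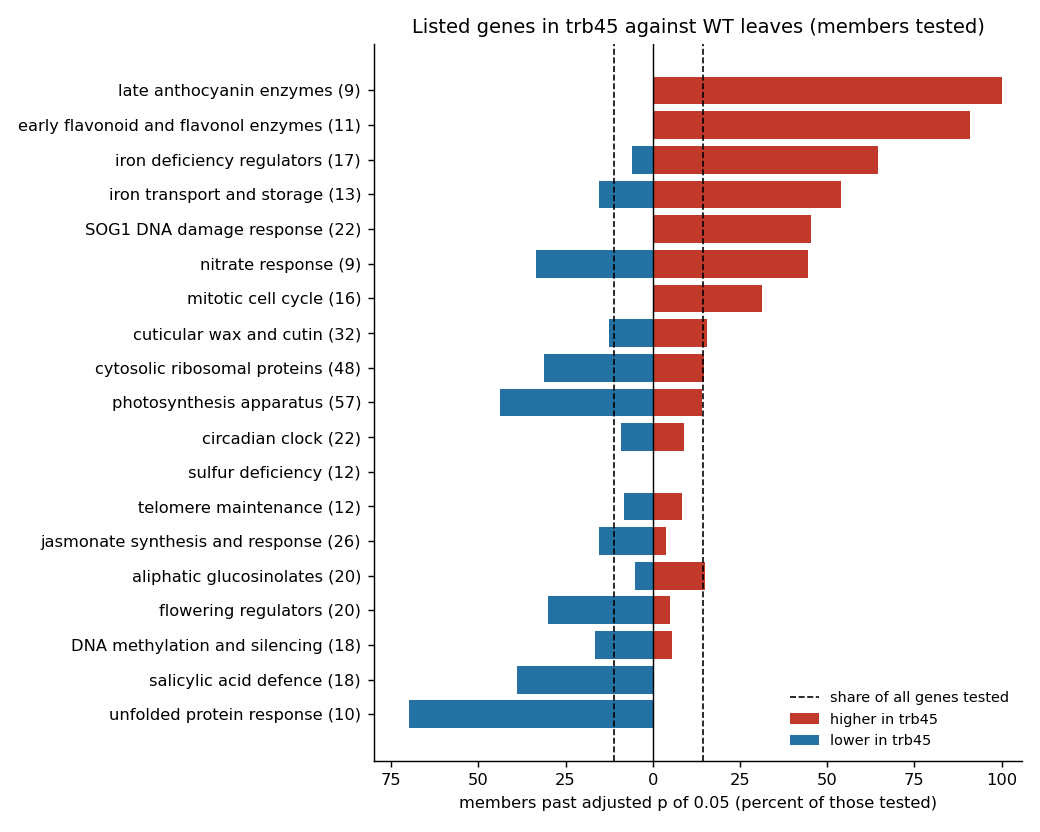
Share of the tested members of 19 gene lists that were higher (red, to the right) or lower (blue, to the left) in trb45 than in WT at an edgeR adjusted p under 0.05, in percent, with the number tested in parentheses. Dashed lines mark 14.5% higher and 11.2% lower, the shares of all 19138 genes tested. Late anthocyanin enzymes reach 9 of 9 higher and the unfolded protein response 7 of 10 lower. The lists were chosen with earlier results known, and other lists used are not drawn.

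Anthocyanins are red and purple flavonoid pigments made in leaves under strong light or nutrient shortage. All 9 late enzymes of the pathway were higher in trb45, with a median log2 fold change of 2.68, and all 9 were also higher in trb45 clf29 than in clf29. DFR, dihydroflavonol reductase at the entry to the anthocyanin branch, had 2.38, 1.86 and 1.85 CPM in WT and 59.3, 57.5 and 55.4 in trb45. It was 28.2-fold higher by the fit (a log2 fold change of 4.82 with an SE of 0.16, adjusted p = 9.61e-12 by edgeR). LDOX, which makes the coloured anthocyanidins, had 1.34, 1.12 and 0.959 CPM in WT and 29.9, 28.4 and 26.3 in trb45. The 3 libraries of each group lay close together for both enzymes, and the groups were more than an order of magnitude apart.

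Enzymes that decorate the pigment followed. UF3GT, a glycosyltransferase, rose from 0.998 ± 0.374 to 16.0 ± 2.02 CPM (mean ± SD, n = 3, as for all such values), a log2 fold change of 4.01 (SE 0.21). AT5MAT, which adds malonyl groups, rose from 0.960 ± 0.0683 to 16.8 ± 1.18 CPM, a log2 fold change of 4.13 (SE 0.20). The edgeR adjusted p was 2.23e-09 for UF3GT and 1.39e-09 for AT5MAT. GSTF12, the glutathione transferase needed to bring the pigment into the vacuole, rose from 3.42 ± 0.877 to 22.0 ± 1.43 CPM. The UDP-glycosyltransferase AT4G14090 had log2 fold change 2.23. The acyltransferases AT1G03940 and AT1G03495 had log2 fold changes of 1.34 and 1.1. The smallest rise was that of scpl10, an acyltransferase of the serine carboxypeptidase type, from 54.2 ± 0.959 to 79.9 ± 4.43 CPM (a log2 fold change of 0.56 with an SE of 0.06, adjusted p = 1.35e-05 by edgeR).

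Enzymes upstream of DFR, shared with other flavonoids, moved less. Of 11 measured early flavonoid and flavonol enzymes 10 were higher and 0 were lower, with a median log2 fold change of 0.47. The number higher was 7 without WT replicate 1, WT replicate 3 or trb45 replicate 2. The number lower was 1 without trb45 replicate 2, and also with other scalings or DESeq2. It was 1 too with genes kept by a mean of at least 10 counts, or without the 10 most counted genes. TT7, the flavonoid 3'-hydroxylase, rose from 2.35 ± 0.188 to 14.2 ± 0.642 CPM (a log2 fold change of 2.59 with an SE of 0.18, adjusted p = 5.71e-08 by edgeR). TT4, chalcone synthase at the start of the pathway, had 659, 759 and 665 CPM in WT and 863, 1159 and 984 in trb45, a log2 fold change of 0.53. TT5, chalcone isomerase, had a log2 fold change of 1.04 and the flavonol synthase FLS1 of 0.56. In clf29 FLS1 stood at 147 ± 3.02 CPM, against 149 ± 30.8 in trb45 clf29, which did not pass the test. The glucosyltransferase UGT78D2 had a log2 fold change of 0.71.

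The regulators of these enzymes did not move as a block. PAP1, the R2R3-MYB factor also called MYB75 that switches on late anthocyanin genes, had 1.83, 2.29 and 1.85 CPM in WT and 7.84, 6.38 and 7.31 in trb45 (a log2 fold change of 1.85 with an SE of 0.23, adjusted p = 2.58e-05 by edgeR). TT8, a bHLH partner of such MYB factors, had 0.278, 0.335 and 0.249 CPM in WT and 4.31, 2.53 and 3.65 in trb45 (a log2 fold change of 3.60 with an SE of 0.27, adjusted p = 1.35e-07 by edgeR). Adding trb45 to clf29 raised both as well, by 2.55 on the log2 scale for PAP1 and 3.45 for TT8. EGL3, a related bHLH factor, rose from 0.884 ± 0.231 to 1.78 ± 0.180 CPM in trb45. In the clf29 background EGL3 had a log2 fold change of -0.36, and the interaction passed (edgeR adjusted p = 0.0126).

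GL3, the closest relative of EGL3, had a log2 fold change of 1.06 in trb45 (edgeR adjusted p = 0.0385), at 0.356 ± 0.119 CPM in WT and 0.744 ± 0.0211 in trb45. This call ended in 5 of the 6 fits that left out a library, with log2 fold changes of 0.82 to 1.11 and edgeR adjusted p values of 0.0697 to 0.137. The WD40 protein TTG1, the third kind of subunit in the MYB-bHLH complex, was slightly lower, with a log2 fold change of -0.31. Without WT replicate 2 its log2 fold change was -0.26 and its edgeR adjusted p was 0.0503. Among 6 repressors 2 were higher (33.3%, against 14.5% of all genes). LBD39 rose from 7.18 ± 0.755 to 25 ± 2.06 CPM (a log2 fold change of 1.8 with an SE of 0.09, adjusted p = 1.84e-09 by edgeR), and LBD38 had a log2 fold change of 0.47. Both LBD factors repress anthocyanin and nitrate genes.

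**Figure D2:**
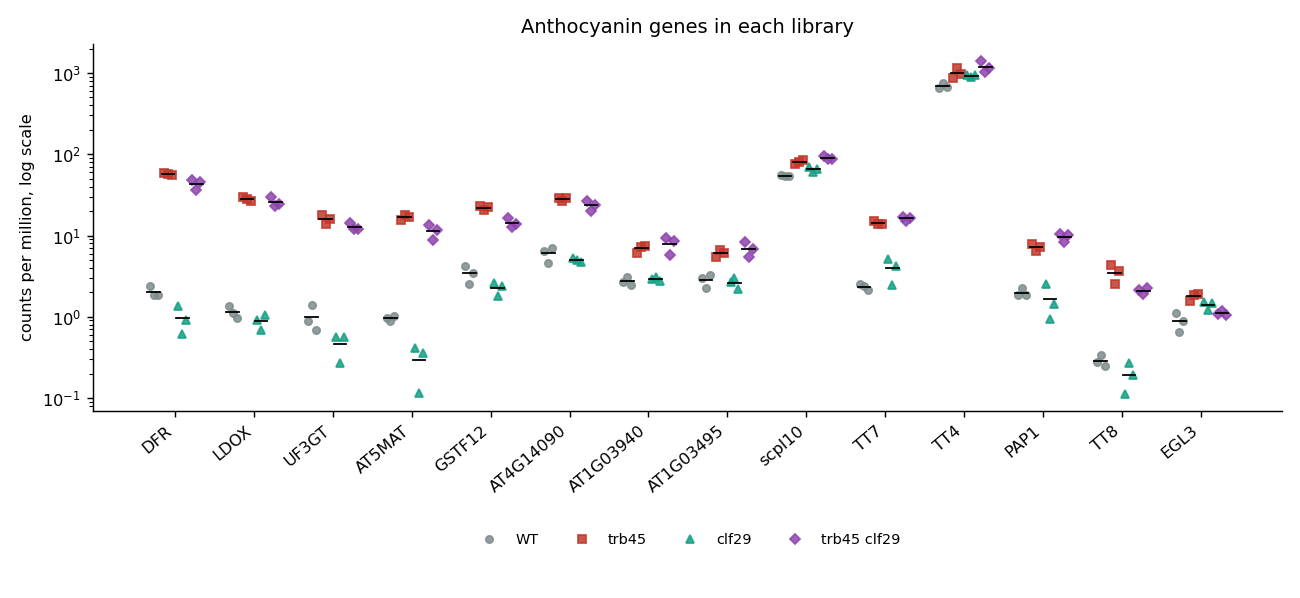
CPM (log axis) of 14 anthocyanin genes in each of the 12 libraries by group, with points for libraries and black lines for means (n = 3). For DFR and LDOX the trb45 and trb45 clf29 points lie together, far above WT and clf29; TT4 at the pathway's start moves little.

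ELIP2 and GPT2, 2 genes that respond to light and sugar, rose too. ELIP2, an early light-induced protein of the thylakoid membrane, had 21.9, 30.0 and 23.8 CPM in WT and 152, 230 and 178 in trb45 (a log2 fold change of 2.89 with an SE of 0.20, adjusted p = 7.13e-08 by edgeR). GPT2, a plastid glucose-6-phosphate translocator that is induced by sugar, had 0.104, 0.205 and 0.195 CPM in WT and 1.87, 2.71 and 2.34 in trb45, a log2 fold change of 3.76. No WT library came near a trb45 library for either gene.

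Plants short of iron switch on a small group of bHLH factors, which raise reduction, uptake and redistribution of iron. Of 17 measured regulators of the iron deficiency response 11 were higher and 1 was lower, with a median log2 fold change of 0.59, and 2 were lower without trb45 replicate 2. The summed level of these regulators was 361.5 to 373.4 CPM over the WT libraries and 531.4 to 640.0 over the trb45 libraries. The bHLH factor BHLH100 had 6.89, 6.76 and 6.71 CPM in WT and 26.1, 40.1 and 31.9 in trb45 (a log2 fold change of 2.27 with an SE of 0.14, adjusted p = 2.30e-08 by edgeR). Its relatives bHLH38 and bHLH39 had log2 fold changes of 1.67 and 1.73, from 10.7 ± 0.517 to 34.1 ± 8.68 CPM and from 11.1 ± 0.398 to 36.9 ± 10.1 CPM. BHLH101, the fourth of this subgroup, had a log2 fold change of 1.15, which was 0.80 (edgeR adjusted p = 0.0527) without trb45 replicate 2. In each of these 4 genes trb45 replicate 2 was the highest library and replicate 1 the lowest of the mutant group. The part of depth or of remaining TRB transcript in this order was not tested.

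The 4 factors stood at very different levels in the clf29 background. BHLH100 rose there from 0.0632 ± 0.0213 to 3.55 ± 0.665 CPM. For bHLH38 the clf29 mean was 0.293 ± 0.121 CPM and adding trb45 brought it to 4.85 ± 1.68. For bHLH39 the corresponding means were 0.159 ± 0.0297 and 4.80 ± 1.6 CPM. BHLH101 was at 0 in all 3 clf29 libraries and was at least 10.1-fold higher in trb45 clf29, against a floor of 3 counts per library. In all 4 the rise with trb45 was present in both backgrounds, from a lower base in clf29, and the interaction passed, with edgeR adjusted p values of 1.49e-04 for BHLH100, 0.00249 for bHLH38, 6.39e-04 for bHLH39 and 0.00301 for BHLH101.

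Other regulators of the list rose as well. AT1G47400 and AT1G47395, listed with the iron regulators, had log2 fold changes of 1.68 each, and AT2G30766 of 0.93. AT1G47400 had 14.7, 15.6 and 14.0 CPM in WT and 37.8, 61.2 and 42.6 in trb45. BTS, a ubiquitin ligase that restrains the iron deficiency response, rose from 117 ± 9.34 to 176 ± 3.44 CPM (a log2 fold change of 0.59 with an SE of 0.07, adjusted p = 3.01e-05 by edgeR). The exception was FRU, the FIT factor that drives iron uptake in roots, with 1.88, 1.51 and 1.60 CPM in WT and 1.04, 0.480 and 0.855 in trb45 (a log2 fold change of -1.05 with an SE of 0.28, adjusted p = 0.0127 by edgeR).

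Genes of iron transport moved with these regulators. Of 13 measured, 7 were higher and 2 were lower, with a median log2 fold change of 0.54, and 1 was lower without WT replicate 1. FRO3, a mitochondrial ferric reductase, had 46.9, 47.6 and 51.5 CPM in WT and 105, 142 and 120 in trb45 (a log2 fold change of 1.33 with an SE of 0.12, adjusted p = 8.73e-07 by edgeR). OPT3, which loads iron into the phloem, rose from 394 ± 25.6 to 745 ± 131 CPM, a log2 fold change of 0.92. FRO2, the ferric reductase of the plasma membrane, rose from 3.26 ± 0.0936 to 6.75 ± 0.817 CPM, and ZIF1, which moves nicotianamine into the vacuole, had a log2 fold change of 0.59. FER4, a ferritin that stores iron, fell from 10.9 ± 0.135 to 5.83 ± 0.394 CPM (a log2 fold change of -0.91 with an SE of 0.08, adjusted p = 6.93e-07 by edgeR). FRO3, OPT3, FRO2 and ZIF1 were also higher, and FER4 lower, in trb45 clf29 than in clf29. AT4G36700, a cupin, was among the 15 largest increases of genes with a mean of at least 1 CPM and no overlap of libraries. It had 0.366, 0.633 and 0.622 CPM in WT and 4.34, 11.3 and 7.47 in trb45, and it was likewise highest in trb45 replicate 2.

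**Figure D3:**
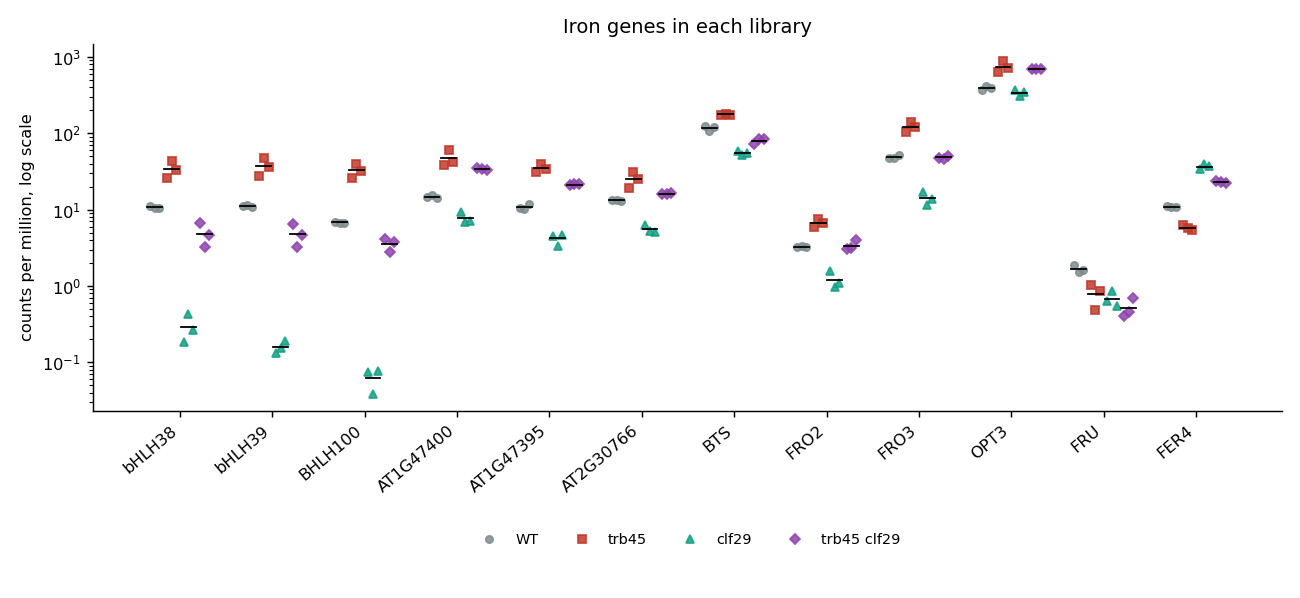
CPM (log axis) of 12 iron genes in each of the 12 libraries by group, with points for libraries and black lines for means (n = 3). bHLH38, bHLH39 and BHLH100 lie lowest in clf29 and rise with trb45 in both backgrounds, while FRU and FER4 are lower in trb45 than in WT.

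Plants sense DNA breaks through SOG1, a NAC transcription factor that turns on repair genes and cell cycle inhibitors. SOG1 itself did not pass the test, with a log2 fold change of -0.26, but 10 of 22 measured genes of its response were higher and 0 were lower, with a median log2 fold change of 0.41. The count of higher genes was 6 without WT replicate 2 and also 6 without trb45 replicate 1, and 1 gene was lower without WT replicate 1. NAC044, a NAC factor that halts the cell cycle at G2, had 0.0522, 0.186 and 0.0710 CPM in WT and 3.15, 2.21 and 2.41 in trb45 (a log2 fold change of 4.64 with an SE of 0.33, adjusted p = 6.82e-08 by edgeR). In the clf29 background NAC044 rose from 0.0763 ± 0.0383 to 4.19 ± 0.311 CPM. Without WT replicate 2, its highest WT library, the log2 fold change of NAC044 was 5.34. GMI1, named for its induction by gamma irradiation and mitomycin C, had 1.27, 0.912 and 1.03 CPM in WT and 4.53, 2.82 and 3.67 in trb45, a log2 fold change of 1.78.

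Further genes of this response were higher too. KRP6, an inhibitor of cyclin-dependent kinases, rose from 2.51 ± 0.524 to 6.08 ± 0.563 CPM (a log2 fold change of 1.27 with an SE of 0.14, adjusted p = 6.97e-06 by edgeR). AT1G07500, listed with the SOG1 targets, had a log2 fold change of 2.05, from 0.166 ± 0.0702 to 0.698 ± 0.0505 CPM. XRI1, named for its induction by X-rays, had a log2 fold change of 0.62 and BARD1, a partner of BRCA1, of 0.45. The kinase gene WEE1 did not pass, with a log2 fold change of 0.05. In the same libraries 5 of 16 mitotic cell cycle genes were higher (31.25%, against 14.5% of all genes) and 0 were lower. Among the higher ones was SYP111, the syntaxin of the cell plate, with a log2 fold change of 0.64. The count of higher mitotic genes was 2 without WT replicate 1 or trb45 replicate 3. It was 3 without WT replicate 2, WT replicate 3 or trb45 replicate 2.

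Of 12 measured genes that maintain telomeres, 1 was higher and 1 was lower (8.33% each), against 14.5% and 11.2% of all genes. Without WT replicate 2 the counts were 2 and 2, and without trb45 replicate 1 there were 2 higher. TBP1, a telomeric repeat binding protein, had 2.19, 1.53 and 1.99 CPM in WT and 3.20, 2.86 and 3.14 in trb45, a log2 fold change of 0.69. NAP57, the dyskerin homologue that modifies ribosomal RNA and binds telomerase RNA, had 85.8, 98.5 and 92.9 CPM in WT and 52.8, 75.2 and 61.4 in trb45 (a log2 fold change of -0.55 with an SE of 0.11, adjusted p = 0.00217 by edgeR). It fell further in the clf29 background, from 130 ± 3.82 to 58.5 ± 8.66 CPM, and the interaction passed (edgeR adjusted p = 0.0308).

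Single members of several translation gene families fell sharply. The promoters of genes with large falls are shown here because TRB proteins bind telo-boxes: each line gives the 100 bases before the annotated start, 5′ to 3′ on the gene's strand (RefSeq, build TAIR10.1), with the telo-box AAACCCTA, or TAGGGTTT where it lies on the other strand, in capitals. They were chosen after their values were seen, for falling by at least 1 on the log2 scale in both backgrounds and for holding a box within the 100 bases, from genes with at least 10 CPM in WT or nearly lost in trb45. That all 5 show a box therefore follows from the choice, and most genes with such falls hold none in the wider window.
AT5G59240, chr5:23903768-23903867, minus strand: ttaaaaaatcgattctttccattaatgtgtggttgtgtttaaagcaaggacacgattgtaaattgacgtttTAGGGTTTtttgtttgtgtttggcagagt
AT4G13575, chr4:7893762-7893861, minus strand: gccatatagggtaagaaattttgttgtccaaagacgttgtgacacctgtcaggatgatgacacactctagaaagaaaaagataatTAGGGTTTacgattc
AT5G65860, chr5:26349057-26349156, minus strand: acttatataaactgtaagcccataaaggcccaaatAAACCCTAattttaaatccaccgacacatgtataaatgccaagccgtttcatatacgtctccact
AT4G12600, chr4:7453096-7453195, plus strand: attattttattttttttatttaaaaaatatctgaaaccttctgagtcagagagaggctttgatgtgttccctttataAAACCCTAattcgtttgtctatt
TCTP, chr3:5670843-5670942, minus strand: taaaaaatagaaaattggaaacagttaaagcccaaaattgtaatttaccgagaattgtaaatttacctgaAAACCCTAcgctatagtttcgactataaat
In these 5 promoters the box shown begins 15 to 65 bases before the start, and AT4G12600 holds 3 boxes in its wider window. AT5G59240 encodes a ribosomal protein of the S8e family, AT4G12600 a protein of the ribosomal L7Ae family, TCTP a growth-related protein that associates with ribosomes, and AT5G65860 an ankyrin repeat protein.

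Of these genes, AT5G59240 had 1.84, 1.60 and 1.76 CPM in WT and 0, 0.0437 and 0 in trb45, so it was at least 30.6-fold lower against a floor of 3 counts per library. TCTP had 542, 580 and 547 CPM in WT and 194, 256 and 222 in trb45 (a log2 fold change of -1.31 with an SE of 0.08, adjusted p = 1.88e-08 by edgeR). AT4G12600 had 30.7, 32.0 and 31.9 CPM in WT and 8.08, 12 and 9.60 in trb45 (a log2 fold change of -1.68 with an SE of 0.12, adjusted p = 1.12e-07 by edgeR). AT5G65860 fell from 11.8 ± 1.39 to 2.78 ± 0.0920 CPM, a log2 fold change of -2.08, and had -2.10 in the clf29 background. In all 4 the highest trb45 library lay well under the lowest WT library.

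Searched over the window from 250 bases before to 50 bases after each start, on both strands, AAACCCTA was found in 5.60% of 19115 tested genes with a window. The share was 7.77% among the higher genes, 6.83% among the lower genes and 5.0% among genes that did not pass. Among genes that fell by at least 1 on the log2 scale it was 11.9%, which is 32 of 269, and among those that rose by as much it was 6.39%. Seen the other way, 215 of the 1071 genes with a telo-box were higher in trb45 (20.07%, against 14.5% of all genes) and 146 were lower (13.6%, against 11.2%). Over all 28003 windows of the annotation the share was 6.20%. With 1 more base, AAACCCTAA, which any such match also counts under the shorter motif, the shares were 3.24% of all tested windows and 7.06% of those of genes that fell by at least 1. A match gives the letters in the window and not a bound site.

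The next 5 translation genes also fell and hold no AAACCCTA in the window searched, which says only that these letters are absent there. RACK1C_AT, a copy of the ribosome scaffold protein RACK1, had 134, 144 and 139 CPM in WT and 11.5, 13.9 and 12 in trb45, which is 8.95% of the WT mean (a log2 fold change of -3.48 with an SE of 0.10, adjusted p = 3.59e-12 by edgeR). AT4G25890, an acidic protein of the 60S subunit, had 38.7, 36.7 and 39.2 CPM in WT and 2.89, 3.34 and 3.39 in trb45. AT3G59670, annotated as an elongation factor, had 18.9, 18.6 and 20.2 CPM in WT and 1.35, 1.64 and 1.4 in trb45. Each had less than 10% of its WT mean left, and each fell by as much or more in the clf29 background, with log2 fold changes of -3.86, -3.73 and -4.34. RPL3B, a ribosomal protein of the large subunit, fell from 30.3 ± 0.481 to 5.38 ± 0.483 CPM, a log2 fold change of -2.49. AT1G23410, a fusion of ubiquitin and ribosomal protein S27a, had 3.88, 5.30 and 4.81 CPM in WT and 0.104, 0.197 and 0.0349 in trb45.

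Most ribosomal protein genes changed less than these members. Of 48 measured cytosolic ribosomal protein genes 15 were lower (31.2%) and 7 were higher (14.6%), with a median log2 fold change of -0.01. RPS18C and PFL, which encode proteins of the S18 family of the small subunit, had log2 fold changes of -0.95 and -0.71. RPS6, a small subunit protein phosphorylated downstream of the TOR kinase, rose from 337 ± 34.6 to 524 ± 53.3 CPM (a log2 fold change of 0.63 with an SE of 0.10, adjusted p = 2.13e-04 by edgeR). AT2G40010, annotated in the ribosomal L10 family, had 2.28, 3.15 and 2.04 CPM in WT and 11.1, 14.8 and 13.3 in trb45, a log2 fold change of 2.39. The wider set of 316 tested genes with a ribosomal protein in the product name held 59 higher and 56 lower genes. Of these, 4 and 8 moved by at least 1 on the log2 scale. Among all genes tested 14.5% were higher and 11.2% lower, and among the most expressed of 4 equal classes 17.9% and 18.2%. Ribosomal proteins are encoded by close relatives, and the counting program and strand setting are not given in the sources used here, so counts of single members are uncertain to the extent that reads were shared.

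In 10 genes trb45 kept less than 5% of the WT mean, among genes with at least 1 CPM in WT. AT3G01345, an uncharacterised gene, had 345, 357 and 354 CPM in WT and 0.104, 0.197 and 0.209 in trb45, a log2 fold change of -11.01. It was at 0.101 ± 0.0665 CPM in clf29, so the clf29 background gives no second measure of its fall. AT1G14250, annotated as a nucleoside phosphatase, had 35.2, 33.5 and 33.8 CPM in WT and 1.57, 1.18 and 2.13 in trb45, and its log2 fold change was -4.37 in both backgrounds. AT1G23410 and AT5G59240, described above, also belong here.

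The other 6 lie in runs of neighbours. On chromosome 4, UNE15, HTA4, AT4G13572 and AT4G13575 follow each other, with MIR841a, which had no count, among them. HTA4, a histone H2A gene, had 6.56, 4.78 and 5.82 CPM in WT and 0.156, 0.131 and 0.192 in trb45 (a log2 fold change of -5.13 with an SE of 0.28, adjusted p = 4.42e-09 by edgeR). AT4G13575 had 18.8, 14.2 and 18.6 CPM in WT and 0.363, 0.153 and 0.244 in trb45. AT4G13572 had a log2 fold change of -5.27 and UNE15, a late-embryogenesis-abundant type protein, of -4.56. The value of UNE15 was -5.31 without trb45 replicate 3.

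In the clf29 background this run was not lost: trb45 clf29 held 32.7% of the clf29 level for UNE15, 40.2% for HTA4, 44.7% for AT4G13572 and 47.9% for AT4G13575. The interaction passed for all 4, with edgeR adjusted p values from 7.19e-08 for AT4G13575 to 0.0213 for UNE15. AT4G13495, a non-coding RNA outside the run on the same chromosome, was lower in the same libraries. It had 117, 68.1 and 95.0 CPM in WT, and 8.46, 4.59 and 7.33 in trb45. Its mean was 91.9 ± 3.77 CPM with clf29 alone and 50.9 ± 11.5 with trb45 added. Its promoter window spans chr4:7842717-7843016, and that of AT4G13575 in the run chr4:7893712-7894011. A link between AT4G13495 and the run was not tested. The genes on either side of the run moved little. AT4G13550 before it did not pass, with a log2 fold change of -0.14. After it, AT4G13580 stood at 0.0841 CPM in WT and did not pass, and AT4G13590 had a log2 fold change of 0.21. The AT4G13590 call ended without WT replicate 1 or 3 or trb45 replicate 2, with log2 fold changes of 0.13 to 0.19 and edgeR adjusted p values of 0.0665 to 0.114.

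AT1G53541 and AT1G53542 are neighbours on chromosome 1, both uncharacterised, with 3.57% and 2.87% of their WT means left in trb45. They were nearly lost in trb45 clf29 as well, at 4.57% and 5.40% of the clf29 means. The value of AT1G53542 was a log2 fold change of -5.08, and -5.81 without trb45 replicate 1. Of the 24 other genes tested within 3 places of the nearly lost genes, 4 were higher and 5 were lower. Over all genes tested, 14.5% were higher and 11.2% lower.

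**Figure D4:**
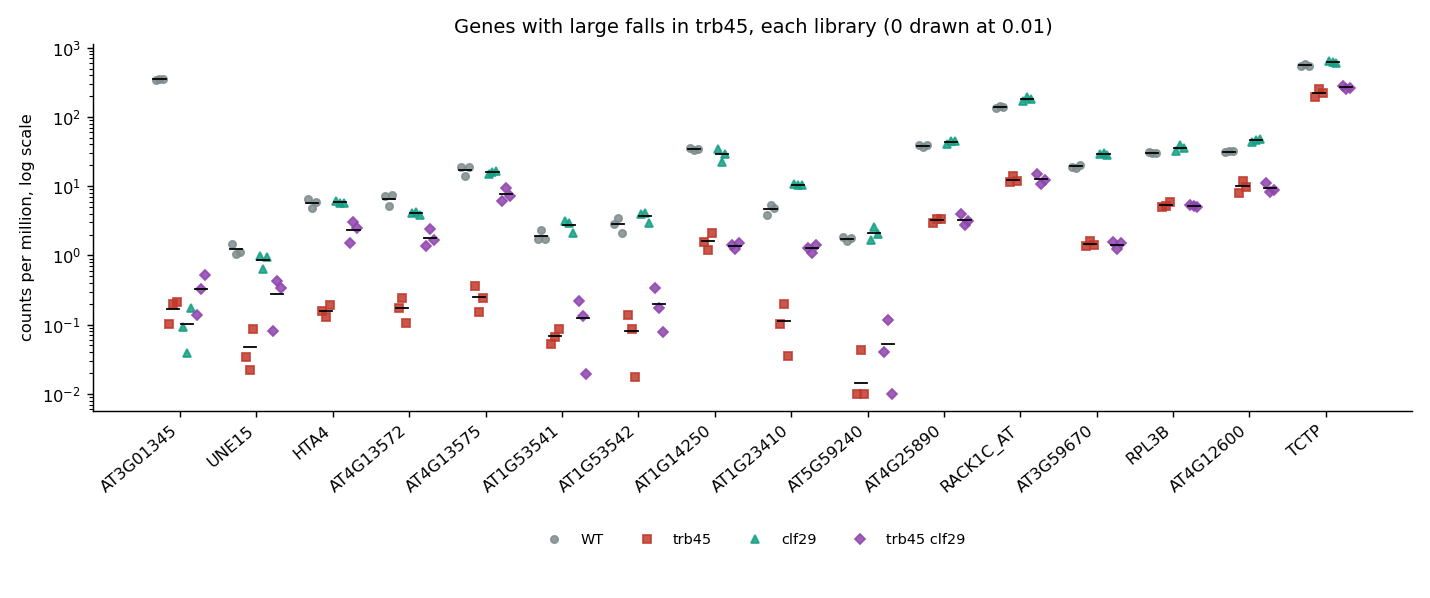
CPM (log axis, values of 0 drawn at 0.01) of 16 genes with large falls in trb45, in each of the 12 libraries by group, with black lines for means (n = 3). AT3G01345 is near 0 in every group but WT; in the chromosome 4 run from UNE15 to AT4G13575 the trb45 mean is the lowest of the 4 groups; translation genes from AT1G23410 to TCTP fall with trb45 in both backgrounds.

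Other genes among the 15 largest decreases with a mean of at least 1 CPM and no overlap of libraries follow. HDA18, a histone deacetylase, fell from 1.84 ± 0.144 to 0.189 ± 0.104 CPM (a log2 fold change of -3.32 with an SE of 0.35, adjusted p = 4.77e-06 by edgeR). UMAMIT36, an amino acid transporter of the nodulin MtN21 type, fell from 11.8 ± 0.946 to 1.37 ± 0.324 CPM, and AT3G62460, annotated as a putative endonuclease or glycosyl hydrolase, had a log2 fold change of -3.03. All 3 fell in the clf29 background too, with log2 fold changes of -3.05, -3.05 and -3.45. LURP1, named for late upregulation in response to a pathogen, had 12.2, 12 and 13.5 CPM in WT and 0.675, 1.90 and 1.12 in trb45. It turned in the clf29 background, where trb45 clf29 libraries ranged from 5.28 to 56.2 CPM and clf29 libraries from 2.89 to 11.4, and these overlap.

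Outside the pathways above, AT4G22390 and AT5G60250 rose most among genes with a mean of at least 1 CPM and no overlap of libraries. AT4G22390, annotated as an F-box associated protein, had 0.505, 0.149 and 0.142 CPM in WT and 4.26, 4.94 and 3.75 in trb45, a log2 fold change of 4.00 that was 4.85 without WT replicate 1. AT5G60250, a RING finger protein, had 0.174, 0.372 and 0.178 CPM in WT and 3.82, 2.53 and 3.82 in trb45, a log2 fold change of 3.82. AT1G01810 and AT1G34315, both uncharacterised, had log2 fold changes of 2.96 and 2.94. AT5G33370, a GDSL-type lipase, had 0, 0.484 and 0.284 CPM in WT and 1.32, 3.47 and 1.47 in trb45, a log2 fold change of 3.01 that ran from 2.39 without WT replicate 1 to 3.83 without WT replicate 2. It moved the other way in the clf29 background, from 19.2 ± 13.7 to 3.13 ± 0.602 CPM.

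Light-harvesting proteins bind chlorophyll around the photosystems. Of 57 measured genes of the photosynthetic apparatus 25 were lower (43.9%) and 8 were higher (14.0%), with a median log2 fold change of -0.15. Among the most expressed of 4 equal classes of all genes, 18.2% were lower and 17.9% higher. LHCB2.3, a light-harvesting protein of photosystem II, had 3281, 3781 and 3423 CPM in WT and 1639, 1728 and 1783 in trb45 (a log2 fold change of -1.03 with an SE of 0.07, adjusted p = 3.51e-08 by edgeR). LHB1B1, of the LHCB1 type, had 3149, 4023 and 3390 CPM in WT and 1798, 1861 and 1697 in trb45, a log2 fold change of -0.98. These 2 genes were near 50% of WT, and no other member fell by more than 0.57 on the log2 scale. LHCB2.2 had a log2 fold change of -0.48, PSAF, which docks plastocyanin at photosystem I, of -0.57, PSBQ-2 of the oxygen-evolving complex of -0.52 and LHCA4 of photosystem I of -0.35.

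The 8 higher members included 3 small subunits of Rubisco. RBCS1B had 4848, 5357 and 4690 CPM in WT and 7083, 7779 and 7718 in trb45 (a log2 fold change of 0.60 with an SE of 0.06, adjusted p = 6.32e-06 by edgeR). RBCS2B and RBCS3B had log2 fold changes of 0.39 and 0.24, and Rubisco activase, RCA, of 0.25. The RBCS3B call ended without WT replicate 1 or 3 or trb45 replicate 2 or 3, with log2 fold changes of 0.17 to 0.21 and edgeR adjusted p values of 0.147 to 0.191. The number of higher members was 5 without WT replicate 1 or trb45 replicate 2, and 4 when the 10 most counted genes were left out, RCA and RBCS2B among them. In trb45 clf29 against clf29, 5 of the 57 were lower and 8 were higher, where 14.2% and 17.2% of all genes were. The interaction passed for LHCB2.3, LHB1B1, PSAF and PSBQ-2 (edgeR adjusted p = 0.00368, 0.00166, 0.0190 and 0.00758), with log2 fold changes of -0.52, -0.19, -0.04 and -0.11 in the clf29 background, where LHCB2.3 passed the test and the other 3 did not. LHB1B1 had 1832 ± 220 CPM in clf29, near its trb45 level.

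**Figure D5:**
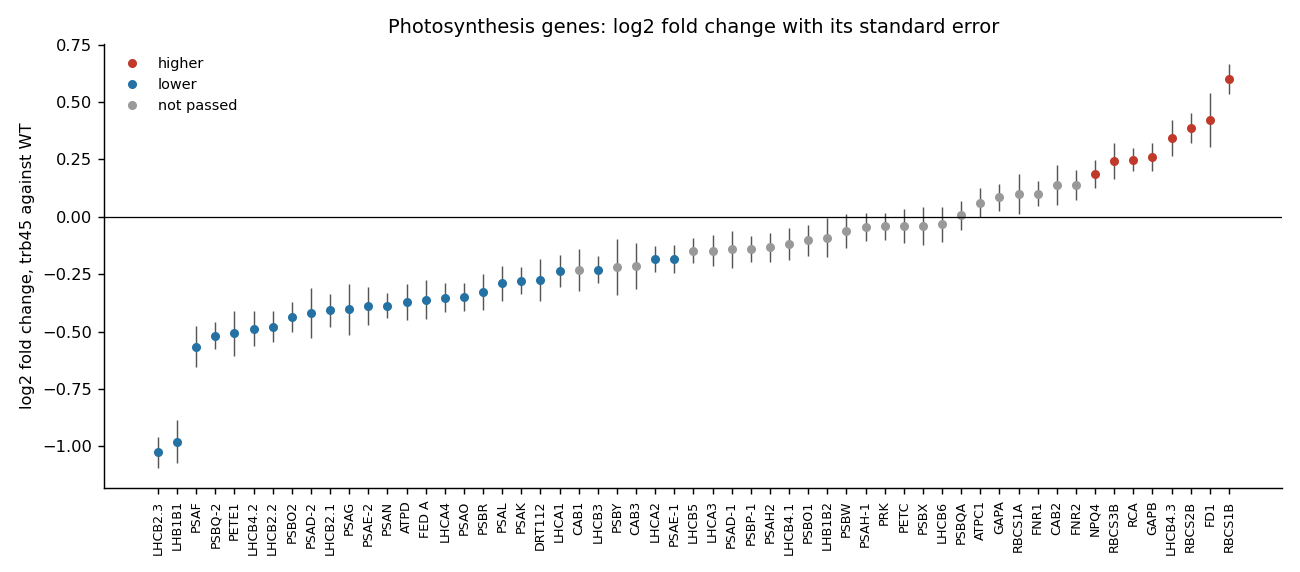
Log2 fold change in trb45 against WT of 57 photosynthesis genes in order of size, with bars for the standard error; red points are higher, blue lower and grey not past an edgeR adjusted p of 0.05. LHCB2.3 and LHB1B1 stand apart near -1, most photosystem genes lie between -0.6 and 0, and Rubisco small subunits are at the upper end.

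Genes of nitrogen use moved in both directions, with 4 higher (44.4%) and 3 lower (33.3%) of 9 measured, against 14.5% and 11.2% of all genes. ASN1, the asparagine synthetase induced by darkness and low sugar, had 0.801, 2.59 and 1.58 CPM in WT and 0.0865, 0.0873 and 0.122 in trb45 (a log2 fold change of -4.02 with an SE of 0.64, adjusted p = 2.71e-04 by edgeR). GLN1;4, a cytosolic glutamine synthetase, fell from 11.9 ± 0.621 to 3.32 ± 0.400 CPM, and the nitrate transporter NRT2:1 had a log2 fold change of -1.60. NRT1.5, which moves nitrate in the vasculature, rose from 16.7 ± 0.251 to 39.3 ± 3.49 CPM (a log2 fold change of 1.23 with an SE of 0.13, adjusted p = 5.01e-06 by edgeR). NIA1, a nitrate reductase, had a log2 fold change of 0.42. ASN1 and GLN1;4 were also lower, and NRT1.5 and NIA1 higher, in trb45 clf29 than in clf29.

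The unfolded protein response raises chaperones of the endoplasmic reticulum. Of 10 measured genes 7 were lower and 0 were higher, with a median log2 fold change of -0.44, and 6 of the 7 were also lower in the clf29 background. BIP1, the luminal Hsp70 chaperone, had 171, 194 and 168 CPM in WT and 110, 136 and 118 in trb45 (a log2 fold change of -0.55 with an SE of 0.08, adjusted p = 1.35e-04 by edgeR). CRT1b, a calreticulin, fell from 118 ± 2.71 to 76.2 ± 3.05 CPM, and CNX1, calnexin, from 127 ± 4.46 to 90.8 ± 6.34 CPM. SDF2 had a log2 fold change of -0.39. The transcription factor BZIP60 did not pass, with a log2 fold change of -0.14. Of the heat shock list, the cytosolic chaperones HSP70 and HSP90.1 were higher. HSP70 rose from 2.69 ± 0.283 to 6.64 ± 1.32 CPM and HSP90.1 from 1.5 ± 0.136 to 3.65 ± 0.460 CPM. The list as a whole had 3 higher (33.3%) and 1 lower (11.1%) of 9, against 14.5% and 11.2% of all genes. The other 5 did not pass.

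Salicylic acid is the hormone of defence against biotrophic pathogens. Of 18 measured genes of its synthesis and response 7 were lower and 0 were higher, with a median log2 fold change of -0.31. EDS16, the isochorismate synthase that makes most salicylic acid, had 16.3, 17.8 and 18 CPM in WT and 9.53, 10.2 and 9.04 in trb45 (a log2 fold change of -0.86 with an SE of 0.14, adjusted p = 3.99e-04 by edgeR). PBS3, which acts in the next step, fell from 9.86 ± 0.819 to 5.69 ± 0.432 CPM, and the receptor gene NPR4 from 13.1 ± 0.892 to 8.88 ± 0.341 CPM. PR5, a pathogenesis-related protein, had a log2 fold change of -0.56. WRKY70, a factor downstream of salicylic acid, had a log2 fold change of -0.98, and -0.84 without WT replicate 2 (edgeR adjusted p = 0.0537). In the clf29 background the list had 7 higher and 2 lower members of the 18, where 17.2% and 14.2% of all genes were.

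The senescence list had 1 lower (7.69%) and 0 higher genes of 13, against 11.2% and 14.5% of all genes. It had 2 lower genes without WT replicate 3 or trb45 replicate 1. The lower gene of the main fit was NAP, a NAC factor of leaf senescence. It had 2.25, 3.42 and 3.0 CPM in WT and 0.242, 0.218 and 0.594 in trb45 (a log2 fold change of -3.0 with an SE of 0.29, adjusted p = 1.97e-06 by edgeR), and -3.64 without trb45 replicate 3. Adding trb45 to clf29 raised NAP instead, from 1.67 ± 0.234 to 4.2 ± 0.467 CPM.

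Many genes of flowering and leaf form are known targets of PRC2. Of 20 flowering regulators 6 were lower (30%) and 1, FLC, was higher (5%), against 11.2% and 14.5% of all genes. RAV2, a repressor of flowering also called TEM2, fell from 49.6 ± 6.24 to 25.7 ± 1.3 CPM (a log2 fold change of -0.95 with an SE of 0.13, adjusted p = 5.69e-05 by edgeR). AGL20, the flowering promoter SOC1, had a log2 fold change of -0.43, and -1.68 in the clf29 background. FLC, a repressor of flowering, had 0.174, 0.707 and 0.355 CPM in WT and 0.831, 0.917 and 0.925 in trb45, with a log2 fold change of 1.12 (edgeR adjusted p = 0.0141). This call ended without WT replicate 1, at 0.73 (edgeR adjusted p = 0.0592), without WT replicate 3, at 1.01 (edgeR adjusted p = 0.0628), and in a fit of the 6 libraries alone, at 1.11 (edgeR adjusted p = 0.0836), and the value was 1.74 without WT replicate 2.

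Floral organ identity genes had 1 higher and 1 lower of 11 (9.09% each), against 14.5% and 11.2% of all genes. The higher call ended without WT replicate 1 or 3 or trb45 replicate 1 or 3. SEP1, a MADS-box gene of floral organs, fell from 0.714 ± 0.141 to 0.272 ± 0.0856 CPM, a low level in all 6 libraries. Leaf polarity genes had 2 higher and 2 lower of 9 (22.2% each). REV, a homeodomain factor of the upper leaf side, had 24.7, 21.9 and 19.6 CPM in WT and 46.0, 36.3 and 39.2 in trb45 (a log2 fold change of 0.88 with an SE of 0.09, adjusted p = 3.96e-06 by edgeR). It did not pass in the clf29 background, and its interaction did (edgeR adjusted p = 0.00100).

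Among chromatin genes, ULT1, a SAND-domain protein that counteracts Polycomb repression, fell from 12.3 ± 1.4 to 6.55 ± 0.794 CPM (a log2 fold change of -0.90 with an SE of 0.11, adjusted p = 1.85e-05 by edgeR), and had a log2 fold change of -1.09 in the clf29 background. RING1B, a subunit of PRC1, rose from 1.45 ± 0.432 to 2.68 ± 0.200 CPM. CMT3 and MET1, 2 DNA methyltransferases, had log2 fold changes of -0.64 and -0.37, and NRPD1A, the large subunit of RNA polymerase IV, of 0.96. The DNA methylation list had 1 higher (5.56%) and 3 lower (16.7%) of 18, against 14.5% and 11.2% of all genes. It had 5 lower without trb45 replicate 1 and 2 higher without WT replicate 1 or trb45 replicate 2. Of 5 linker histone and related genes 4 were higher and 0 were lower, and the count was 2 without WT replicate 1 or WT replicate 3. AT1G06760 and AT2G30620, the most counted of them, had log2 fold changes of 0.38 each.

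Wax and cutin genes had 5 higher (15.6%) and 4 lower (12.5%) of 32, near the 14.5% and 11.2% of all genes. The number higher was 2 without WT replicate 1, WT replicate 3 or trb45 replicate 2, and 3 without trb45 replicate 3. CER4, a reductase that makes the primary alcohols of wax, had 5.24, 3.91 and 4.28 CPM in WT and 2.09, 1.59 and 1.69 in trb45 (a log2 fold change of -1.31 with an SE of 0.13, adjusted p = 3.13e-06 by edgeR). SHN3, an ERF factor of the cuticle, fell from 0.484 ± 0.0275 to 0.0883 ± 0.0600 CPM, and KCS6, an elongase of very long fatty acids, had a log2 fold change of 0.45.

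Markers of mesophyll and guard cells moved little. None of 4 mesophyll and 5 guard cell markers passed the test. Trichome markers had 1 higher and 1 lower of 4 tested (25% each, against 14.5% and 11.2% of all genes). The higher call ended without WT replicate 1, and the lower call without WT replicate 1 or 3 or trb45 replicate 1 or 3. The 4 mesophyll markers summed to 41454 to 46456 CPM in WT and 40762 to 48873 in trb45, and the guard cell markers to 127 to 134 and 127 to 136 CPM. Anther markers had 1 higher of 7 (14.3%, against 14.5% of all genes), the sporopollenin enzyme LAP6, with a log2 fold change of 0.50. The LAP6 call ended in 5 of the 6 fits without a library, with log2 fold changes of 0.37 to 0.57 and edgeR adjusted p values of 0.0522 to 0.164. Phloem markers had 1 higher of 4 (25%, against 14.5% of all genes). Their summed level was 486.5 to 492.3 CPM in WT and 455.7 to 477.9 in trb45. Root markers summed to 10.6 to 11.3 CPM in WT and 11.8 to 13.7 in trb45. Only 2 of the 7 were tested, and none was called. Of 7 seed markers, 4 were at 0 in all 6 libraries and CRA1, a seed storage globulin, had 0.305 ± 0.0419 CPM in WT and 1.66 ± 0.231 in trb45. The part of these shifts in the results was not tested.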

How the data were processed

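The table deposited by the authors holds whole-number read counts of genes, not scaled, for 12 libraries of polyA RNA. Per the submitters' processing notes, HISAT2, DESeq2 and the build TAIR10 were used, and the counting program is not given in the sources used here. Libraries were grouped by the genotype in their labels, and 1 trb45 clf29 column without a number was used as a replicate of its group. Genes were kept by filterByExpr (minimum count 10, minimum total 15), scaled with TMM factors and fitted with the quasi-likelihood model of edgeR 4.0.16 (R 4.3.3), with 4 group means over all 12 libraries and Benjamini-Hochberg adjustment over the genes tested. SEs are the log2 fold change divided by the square root of F. The floor of 3 counts covers counting error only. Symbols, products and promoter windows came from RefSeq on TAIR10.1, which matched 28009 locus codes. The fit was tested on simulated data.

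The genes and lists were chosen with earlier results of these data known. Named genes were the list members, the 15 largest increases and 15 largest decreases with a mean of at least 1 CPM and no overlap of libraries, and genes within 3 places of the nearly lost genes. A few genes outside these, such as TCTP, TGG2 and AT5G65860, were chosen after their values were seen. Alternatives were other scalings and filters, DESeq2 1.42.0, stricter thresholds, the 6 libraries alone, the replicate number as a block, and each WT and trb45 library left out.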

Additional observations from a re-analysis of the deposited data

Results flagged for a closer look

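Each value below is a difference on the log2 scale: the effect of trb45 in clf29 less its effect in WT. They are given for the 38 genes named here, of 133, whose interaction had an edgeR adjusted p under 0.05, against 7.47% of all genes tested. Because the genes were chosen with the results known, the share is a description.

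In 6 of these genes trb45 moved the transcript in opposite directions, with both effects past the threshold. AT3G01345 had an interaction of 12.71, where clf29 and trb45 clf29 were both near 0. LURP1 had 5.50, with clf29 and trb45 clf29 libraries that overlap, and the senescence factor NAP had 4.34. The GDSL lipase AT5G33370 had -5.63, the bHLH factor GL3 had -2.29 and LAP6 had -1.28.

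Among nearly lost genes and translation genes, the interaction was 4.97 for AT4G13575, 4.11 for AT4G13572, 3.82 for HTA4, 2.96 for UNE15, 2.92 for AT4G13495 and 2.38 for AT1G23410, so these kept more of their level in trb45 clf29. It was -0.61 for AT3G59670 and -0.62 for AT4G12600, which fell further there, as did AT1G72740 (TRB5) itself with -1.29 and NAP57 with -0.60.

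Iron genes had a larger rise on the log2 scale in the clf29 background: 2.38 for bHLH38, 3.17 for bHLH39, 3.49 for BHLH100 and 0.67 for AT1G47395. BHLH100 was near the floor in clf29, at 0.0750, 0.0387 and 0.0760 CPM. Its mean went from 6.79 to 32.7 CPM with trb45 in WT, and from 0.0632 to 3.55 CPM in clf29. The value of 6.79 for BHLH101 depends on the prior count, since its clf29 libraries were at 0. Rises were smaller there for LBD39 (-1.10), ELIP2 (-1.36), GMI1 (-1.07), AT4G15680 (-1.03) and AT4G22390 (-1.98), and larger for NIA1 (0.42). EGL3 (-1.36) and REV (-0.84) rose in trb45 and did not pass in the clf29 background, where their log2 fold changes were -0.36 and 0.03.

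Falls were smaller there for LHCB2.3 (0.51) and GLN1;4 (0.88), and larger for PR5 (-0.48) and AGL20 (-1.25). LHB1B1 (0.79), PSAF (0.52), PSBQ-2 (0.40), NPR4 (0.78) and RAV2 (1.22) fell in trb45 and did not pass in the clf29 background, where the log2 fold changes of NPR4 and RAV2 were 0.21 and 0.27.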

How the results depend on the processing

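Of 133 named genes past the threshold, 124 kept their call whichever WT or trb45 library was left out, and GL3, TTG1, BHLH101, WRKY70, FLC, MSI1, RBCS3B, AT4G13590 and LAP6 did not. Under the other scalings, filters, the fit of 6 libraries and DESeq2, 128 kept it, and LAP6, RBCS3B, MSI1, AT4G13590 and FLC did not in at least 1. None of the 133 reversed under any of these. The number of genes changed in trb45 was 4912, and with a library left out it ran from 3506 to 4698. The number higher was 2771 and ran from 1806 to 2425, and the number lower was 2141 and ran from 1678 to 2412. At an edgeR adjusted p under 0.01 there were 2875 changed genes, 1653 higher and 1222 lower, and past a log2 change of 1 in either direction there were 709, 440 and 269. For trb45 clf29 against clf29 the count was 6012, with 3762 and 1116 under these thresholds, and for the interaction 1429, with 585 and 439. With AAACCCTAA the telo-box shares were 4.77% in place of 7.77% among higher genes, 3.98% in place of 6.83% among lower genes, and 7.06% in place of 11.9% among genes that fell by at least 1, since the longer motif is rarer by its construction.

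Equal replicate numbers were not taken as pairs in the main fit. Deviations from the group means of same-numbered WT and trb45 libraries correlated at 0.27, 0.32 and 0.03, and 2 of the 3 numbers had a correlation over 0.1. Between WT and trb45 libraries of different number the values ran from -0.29 to 0.09. A shared origin of same-numbered libraries was not tested. With the replicate block, over the 11 libraries with a number, 4133 genes changed in trb45 (2337 higher and 1796 lower). There were 3897 in trb45 clf29 against clf29, and 657 in the interaction. The 38 interactions flagged above came from the fit without the block. Of the genes named, the calls of GL3, RBCS3B and LAP6 ended under the block, with log2 fold changes of 1.07, 0.24 and 0.50. Depth limits genes near the floor, such as AT5G59240, SHN3, BHLH101 and, in clf29, BHLH100.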

Other observations

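Small nucleolar RNAs guide modification of ribosomal RNA. Of 24 tested, 12 were lower and 0 were higher, against 11.2% and 14.5% of all genes, and the median log2 fold change was -1.09. Of the other 12, 10 had a negative log2 fold change and 2 a positive one. AT2G05765 had 1.44, 1.34 and 1.37 CPM in WT and 0.138, 0.218 and 0.227 in trb45 (a log2 fold change of -2.83 with an SE of 0.28, adjusted p = 2.69e-06 by edgeR), and no trb45 library came near a WT library. The lower members had WT means of 0.174 to 4.39 CPM, a low level in libraries made from polyadenylated RNA. In trb45 clf29 against clf29, 8 of the 24 were lower and 0 were higher, where 14.2% and 17.2% of all genes were. Of the 8, 6 were also lower in trb45 against WT. Several have close locus codes, so the 12 need not be separate changes. AT3G47342, AT3G47347 and AT3G47348 have codes close to ASN1 (AT3G47340), which had a log2 fold change of -4.02. With the counting program and strand setting not given, reads of neighbouring genes may be in these counts.

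A run of 5 adjacent genes annotated in the thioredoxin superfamily was higher in trb45. AT4G15680 had 0.418, 0.261 and 0.426 CPM in WT and 3.91, 4.06 and 4.49 in trb45 (a log2 fold change of 3.48 with an SE of 0.20, adjusted p = 8.53e-09 by edgeR). Its neighbours AT4G15660, AT4G15670, AT4G15690 and AT4G15700 had log2 fold changes of 1.33, 2.40, 1.76 and 2.00. All 5 were also higher in trb45 clf29 than in clf29. They are close relatives, so reads may have been shared among them.

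TGG2, a myrosinase that breaks down glucosinolates, had 2298, 2723 and 2409 CPM in WT and 599, 845 and 670 in trb45 (a log2 fold change of -1.81 with an SE of 0.12, adjusted p = 3.51e-08 by edgeR). It fell in the clf29 background as well, with a log2 fold change of -1.63. Aliphatic glucosinolate synthesis genes had 3 higher (15%) and 1 lower (5%) of 20 in trb45, against 14.5% and 11.2% of all genes. The number higher was 0 without WT replicate 1 or 2, and 1 without WT replicate 3, trb45 replicate 1 or trb45 replicate 3. The 1 lower gene became 0 without WT replicate 2 or trb45 replicate 3 and 2 without trb45 replicate 1. In the clf29 background 17 of the 20 were higher and 1 was lower, where 17.2% and 14.2% of all genes were. The interaction passed for 15 of the 20, against 7.47% of all genes.

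Changed genes were spread evenly over the chromosomes, with 25.3% to 26.3% of the genes tested on each. Of the 500 genes made up by the 50 tested genes nearest each chromosome end, 22.6% changed. The share of changed genes rose with the level of expression, from 15.7% of the least to 36.1% of the most expressed of 4 equal classes.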
